A study of Mus musculus with 6 samples.

Results

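Krüppel-like factors (KLFs) are zinc finger proteins that bind GC-rich elements and CACCC boxes in promoters, and the 10 genes followed here are Klf2, Klf3, Klf4, Klf5, Klf6, Klf7, Klf9, Klf10, Klf11 and Klf13, taken by symbol from the 34199 gene symbols counted. Klf1, the erythroid member, was left out of the 10 and is treated with the rest of the family. Of the 10 genes, 9 had enough reads to be tested, and Klf5 had 0 reads in all 6 libraries. RNA was sequenced from C57Bl/6 Lys-GFP-ER-HoxA9 cells, granulocyte-macrophage progenitors that carry a GFP reporter at the lysozyme gene and are held in self-renewal by HOXA9 fused to the ligand-binding part of the estrogen receptor. All cells were grown with stem cell factor and sampled at 24 h, in 3 groups of 2 libraries. CAF-1 OFF cells were kept in 150 ng/ml β-estradiol and given 500 µM IPTG to induce a hairpin RNA that targets Chaf1b, the gene of a CAF-1 (histone chaperone) subunit. Control cells had the same estradiol and were also given IPTG, at a dose the labels do not state. HOXA9 OFF cells were washed free of estradiol, which inactivates the fusion protein, and the labels do not say whether they received IPTG. The cells are immortalized lines from clones, the hairpin vector of the control and HOXA9 OFF cells is not in the labels, and the labels do not say which clones the replicates came from. The study mentions independent subclones for RNA-seq of uninduced cells and a later time, without linking them to these libraries. The p-values below therefore measure the spread between these libraries, which may be technical.

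The libraries held 16773560 to 25170898 reads assigned to genes. CPM values below are counts per 1e6 reads of the TMM-scaled library size, and 3 counts, the floor used here, equal 0.118 to 0.182 CPM. A call required a fold of at least 1.5 and a Benjamini-Hochberg FDR under 0.05 over all 12460 genes tested, by edgeR's quasi-likelihood test, and every FDR below comes from that test. Chaf1b was at 90.0 and 105 CPM in control, 17.8 and 12.1 CPM with CAF-1 OFF, and 64.6 and 61.4 CPM in HOXA9 OFF. Its log2 change against control was -2.71 in CAF-1 OFF (FDR 0.0198) and -0.63 in HOXA9 OFF (FDR 0.0396), so it was called lower in both. Loss of HOXA9 activity acts on the fusion protein, so Hoxa9 reads are no check of that label. Markers of granulocyte-macrophage progenitors (7 genes, among them Mpo, Elane and Prtn3) summed to 11300 to 14300 CPM in control, which matches the labelled cell type, while T cell markers summed to 0 in control and at most 0.121 CPM elsewhere.

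KLFs share a carboxy-terminal block of zinc fingers and differ in the amino-terminal part, which recruits other proteins. Klf2, Klf4, Klf5, Klf6 and Klf7 mainly activate transcription with histone acetyltransferases, Klf3 represses through CtBP, and Klf9, Klf10, Klf11 and Klf13 can repress through the SIN3A corepressor. In blood cells, Klf2 is known for keeping lymphocytes and myeloid cells quiescent, Klf4 for monocyte differentiation, and Klf1 for red cell genes.

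Promoters of 8 of the 10 genes were matched in the RefSeq table (GRCm38.p6), which gives 250 bases before to 50 bases after the start of each gene. Klf5 and Klf10 were not matched. The promoters of Klf2, Klf4, Klf6 and Klf13 are shown because these genes had large or abundant changes in HOXA9 OFF, and that of Klf9 because this gene did not pass the test in any comparison. They lie at chr8:72318812-72319111 on the plus strand (Klf2), chr4:55532426-55532725 on the minus strand (Klf4), chr13:5861239-5861538 on the plus strand (Klf6), chr7:63938866-63939165 on the minus strand (Klf13) and chr19:23140976-23141275 on the plus strand (Klf9). Each is written 5′ to 3′ on the strand of the gene, with capitals marking the CACCC box and the GC box (GGGCGG) on either strand and the MEF2 site.
Klf2: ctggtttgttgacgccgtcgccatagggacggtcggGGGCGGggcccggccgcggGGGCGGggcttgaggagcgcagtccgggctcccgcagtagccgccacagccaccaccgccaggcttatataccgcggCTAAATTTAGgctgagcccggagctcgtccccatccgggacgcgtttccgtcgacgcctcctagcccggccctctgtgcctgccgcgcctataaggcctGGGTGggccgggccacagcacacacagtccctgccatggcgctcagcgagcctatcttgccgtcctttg
Klf4: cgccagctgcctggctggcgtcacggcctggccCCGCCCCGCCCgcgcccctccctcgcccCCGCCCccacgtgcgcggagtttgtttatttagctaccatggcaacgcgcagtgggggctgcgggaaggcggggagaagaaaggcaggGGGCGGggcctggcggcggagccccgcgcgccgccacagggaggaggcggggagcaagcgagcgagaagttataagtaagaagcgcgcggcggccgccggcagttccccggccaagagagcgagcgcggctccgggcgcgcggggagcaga
Klf6: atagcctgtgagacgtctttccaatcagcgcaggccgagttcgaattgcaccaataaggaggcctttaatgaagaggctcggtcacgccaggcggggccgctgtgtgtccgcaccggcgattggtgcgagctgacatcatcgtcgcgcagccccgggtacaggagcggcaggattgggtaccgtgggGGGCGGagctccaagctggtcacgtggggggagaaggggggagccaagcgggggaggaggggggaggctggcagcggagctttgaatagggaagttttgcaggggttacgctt
Klf13: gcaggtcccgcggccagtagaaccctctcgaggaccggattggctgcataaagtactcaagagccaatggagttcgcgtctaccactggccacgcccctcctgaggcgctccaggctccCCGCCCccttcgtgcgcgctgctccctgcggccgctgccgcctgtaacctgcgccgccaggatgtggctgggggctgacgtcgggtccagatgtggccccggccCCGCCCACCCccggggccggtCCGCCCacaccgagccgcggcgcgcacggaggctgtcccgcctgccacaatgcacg
Klf9: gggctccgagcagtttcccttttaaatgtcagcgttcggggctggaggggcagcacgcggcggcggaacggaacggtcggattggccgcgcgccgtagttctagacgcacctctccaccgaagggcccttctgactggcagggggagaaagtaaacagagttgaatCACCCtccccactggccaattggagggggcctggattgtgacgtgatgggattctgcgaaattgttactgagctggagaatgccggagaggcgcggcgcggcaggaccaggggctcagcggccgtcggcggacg

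The Klf2 promoter held 1 CACCC box, 2 GC boxes and 1 MEF2 site that began 118 bases upstream of the start. The MEF2 site was found in 0.566% of the 27025 promoters in the table, and this motif was added to the search after the sequence had been seen. Klf4 held 0 CACCC boxes and 4 GC boxes, Klf6 held 0 and 1, Klf13 held 1 and 3, and Klf9 held 1 and 0. The CACCC box was present in 56.7% and the GC box in 35.9% of all promoters of this length, and CACCC and GC boxes overlap in places, as in the run of capitals near the end of the Klf13 promoter. The ETS core CGGAAG and the C/EBP core TTGCNNAA, in 17.2% and 10.8% of all promoters, had no match in the 8 windows. Base composition was high in G and C, at 69.3% for Klf2, 74.3% for Klf4, 63% for Klf6, 72% for Klf13 and 63.3% for Klf9, against a median of 52.7% over all promoters.

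To learn how these factors behaved after HOXA9 inactivation, HOXA9 OFF cells were compared with control. Klf2, Klf3, Klf4, Klf6, Klf7 and Klf13 rose, by 1.77-fold to 33.4-fold, and none of the 9 tested fell. Thus 6 of 9 were called higher, where 13% of all genes tested were called higher and 8.97% lower. By recruiting group, 4 of the 5 acetyltransferase-recruiting genes rose (the other, Klf5, was not tested), as did Klf3 and 1 of the 4 SIN3A-recruiting genes. The median log2 change was 1.25 over the 9 and -0.00349 over all genes tested. Klf2 passed the filter on low counts only through its HOXA9 OFF reads, so it could hardly enter the test without differing, and over the 8 members that also passed without those libraries 5 were called higher, with a median of 1.03.

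Klf2 (chr8:74842932-74845555, plus strand, mm9) had 8 and 5 counts in control, 13 and 7 in CAF-1 OFF, and 254 and 139 in HOXA9 OFF. This corresponded to 0.314 and 0.290 CPM in control, 0.675 and 0.354 CPM in CAF-1 OFF, and 12.3 and 8.43 CPM in HOXA9 OFF. Both HOXA9 OFF libraries lay far above the other 4, which were close to the floor. The rise in HOXA9 OFF was 33.4-fold (log2 5.06 ± 0.44 SE, 95% interval 4.02 to 6.10, FDR 0.000803), and Klf2 was tested only because of its reads in that group.

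Klf4 (chr4:55540013-55545347, minus strand) is one of the factors used to reprogram cells to pluripotency. It was at 0.628 and 2.67 CPM in control, 0.883 and 0.709 CPM in CAF-1 OFF, and 8.25 and 20.5 CPM in HOXA9 OFF. The replicates stood 4.25-fold apart in control and 2.48-fold apart in HOXA9 OFF, yet both HOXA9 OFF values lay above those of control and CAF-1 OFF, which overlapped. Klf4 rose 8.98-fold (log2 3.17 ± 0.70 SE, FDR 0.0168). Without HOXA9 OFF replicate 2 the log2 change was 2.36 and the call was lost (FDR 0.0714), and without control replicate 1 or 2 it was 2.41 (FDR 0.0449) or 4.497 (FDR 0.0141).

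Klf6 (chr13:5860735-5869639, plus strand), an immediate early gene expressed in macrophages, had the smallest error of the 9. Its level was 29.0 and 31.2 CPM in control, 28.3 and 29.6 CPM in CAF-1 OFF, and 107 and 117 CPM in HOXA9 OFF. The 4 libraries of the first 2 groups could not be separated, whereas HOXA9 OFF stood apart. The rise was 3.71-fold (log2 1.89 ± 0.11 SE, FDR 0.00028).

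Klf7 (chr1:64076021-64168856, minus strand), a factor known from nerve and fat cells, was at 8.76 and 8.53 CPM in control, 6.91 and 8.76 CPM in CAF-1 OFF, and 16.9 and 13.6 CPM in HOXA9 OFF. It rose 1.77-fold (log2 0.82 ± 0.21 SE, FDR 0.0259), the weakest of the 6 calls. The call was lost without control replicate 1 (log2 0.83, FDR 0.0982), without control replicate 2 (log2 0.80, FDR 0.117) and without HOXA9 OFF replicate 1 (log2 0.65, FDR 0.157). Klf7 also overlaps the antisense genes Gm17427 (0 counts in all libraries) and Gm13748 (6 to 24 counts), and the strand setting of the counting was not given in the sources used here, so its reads are uncertain.

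Klf5 (chr14:99697910-99712624, plus strand), which drives growth of gut epithelium, was listed at 0 in every library. Mapk7, a kinase gene of wide expression, was also listed at 0 in all 6 libraries, so no upper limit is drawn from a listed 0.

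Klf3 (chr5:65194628-65221368, plus strand), the CtBP-recruiting repressor, was at 7.27 and 9.35 CPM in control, 6.29 and 6.28 CPM in CAF-1 OFF, and 18.0 and 21.3 CPM in HOXA9 OFF. HOXA9 OFF was the highest group and CAF-1 OFF the lowest, with no overlap among the 3. Klf3 rose 2.38-fold in HOXA9 OFF (log2 1.25 ± 0.20 SE, FDR 0.00538).

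Among the SIN3A-recruiting genes, Klf13 (chr7:71031237-71083801, minus strand), known as a regulator of the chemokine RANTES in T cells, was at 103 and 84.1 CPM in control, 112 and 111 CPM in CAF-1 OFF, and 279 and 246 CPM in HOXA9 OFF. It rose 2.80-fold (log2 1.48 ± 0.13 SE, FDR 0.000911), and both HOXA9 OFF libraries exceeded the other 4.

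The other SIN3A-recruiting genes did not pass the test. Klf9 (chr19:23215716-23241401, plus strand), a gene induced by glucocorticoid and thyroid hormone, was at 35.8 and 31.3 CPM in control, 36.6 and 34.3 CPM in CAF-1 OFF, and 35.6 and 33.2 CPM in HOXA9 OFF. All 3 groups overlapped, and the log2 change in HOXA9 OFF was 0.03 ± 0.13 SE (95% interval -0.27 to 0.33, FDR 0.868), the sign of which turned (-0.046) when libraries were scaled by total alone.

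Klf10 (chr15:38221219-38230464, minus strand) and Klf11 (chr12:25336236-25347639, plus strand) are early genes of the TGF-beta response. Klf10 was at 22.9 and 24.3 CPM in control, 28.6 and 23.0 CPM in CAF-1 OFF, and 31.8 and 26.8 CPM in HOXA9 OFF, which gave a log2 change of 0.32 ± 0.16 SE in HOXA9 OFF (95% interval -0.07 to 0.70, FDR 0.188). Both HOXA9 OFF values of Klf10 lay above both control values, but not beyond the test. Klf11 was at 7.19 and 8.42 CPM in control, 8.52 and 6.23 CPM in CAF-1 OFF, and 8.88 and 6.24 CPM in HOXA9 OFF, with a log2 change of -0.04 ± 0.27 SE (FDR 0.928).

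**Figure D1:**
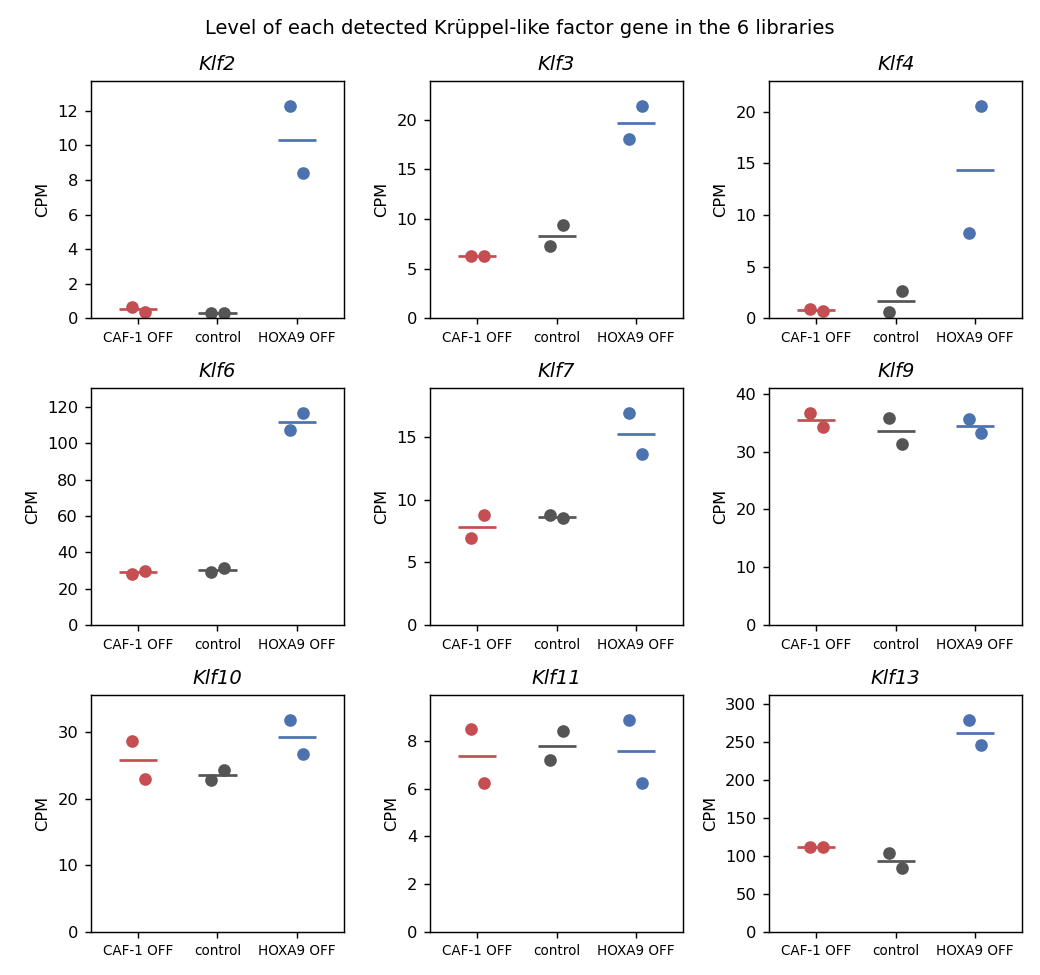
Level of each detected KLF gene in CPM (linear axis from 0, 1 panel per gene), with 1 point per library in the 3 groups and a line at the group mean. The HOXA9 OFF points of Klf2 lie at 12.3 and 8.43 CPM, against at most 0.675 CPM in the other libraries, while the points of Klf9 overlap between 31.3 and 36.6 CPM.

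**Figure D2:**
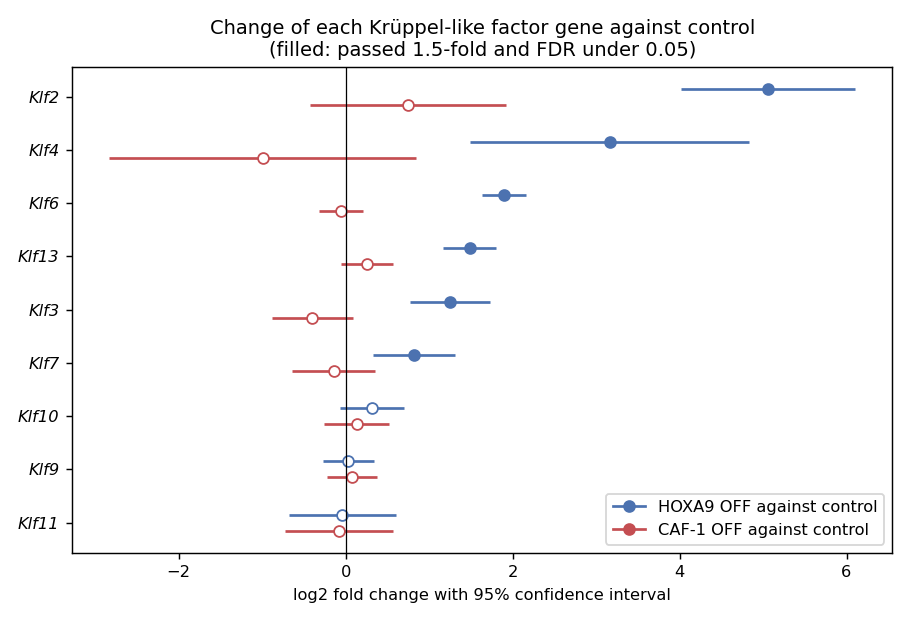
Log2 fold changes of the 9 tested KLF genes in HOXA9 OFF (blue) and CAF-1 OFF (red) against control, with 95% intervals and filled points where called. The HOXA9 OFF estimates run from -0.04 (Klf11) to 5.06 (Klf2), and the intervals of the CAF-1 OFF estimates all include 0.

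The abundance of the KLF genes per kilobase of exon gives their order within a group. In control, Klf13 was the most abundant, at 14.2 CPM per kb, ahead of Klf9 at 10.3, Klf6 at 7.14, Klf10 at 6.17, Klf3 at 3.18, Klf11 at 1.85 and Klf7 at 1.06 CPM per kb. Klf4 at 0.539 and Klf2 at 0.164 CPM per kb closed the order. In HOXA9 OFF the order became Klf13 at 39.8, Klf6 at 26.5 and Klf9 at 10.5 CPM per kb, then Klf10 at 7.67 and Klf3 at 7.54 CPM per kb, whose ranges overlapped. Klf2 at 5.60 and Klf4 at 4.70 CPM per kb also overlapped, as did Klf7 at 1.88 and Klf11 at 1.79 CPM per kb. Klf6 thus passed Klf9, and Klf2 and Klf4 passed Klf7 and Klf11, which they had trailed in control. In CAF-1 OFF the order ran as in control from Klf13 to Klf7, with Klf6 and Klf10 overlapping, and Klf2 and Klf4 were indistinguishable at 0.279 and 0.260 CPM per kb.

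The 10 genes summed to 44.6 ± 1.21 CPM per kb in control (SD, n = 2), 47.1 ± 1.82 with CAF-1 OFF and 106 ± 1.96 with HOXA9 OFF. Klf13 made up a like share of the sum in each group, 31.8% in control, 36.0% with CAF-1 OFF and 37.5% with HOXA9 OFF. Klf6 made up 16.0%, 14.6% and 25%, and Klf2 0.367%, 0.587% and 5.27%, in the same order of groups. Klf9 went from 23.0% in control to 9.94% in HOXA9 OFF.

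**Figure D3:**
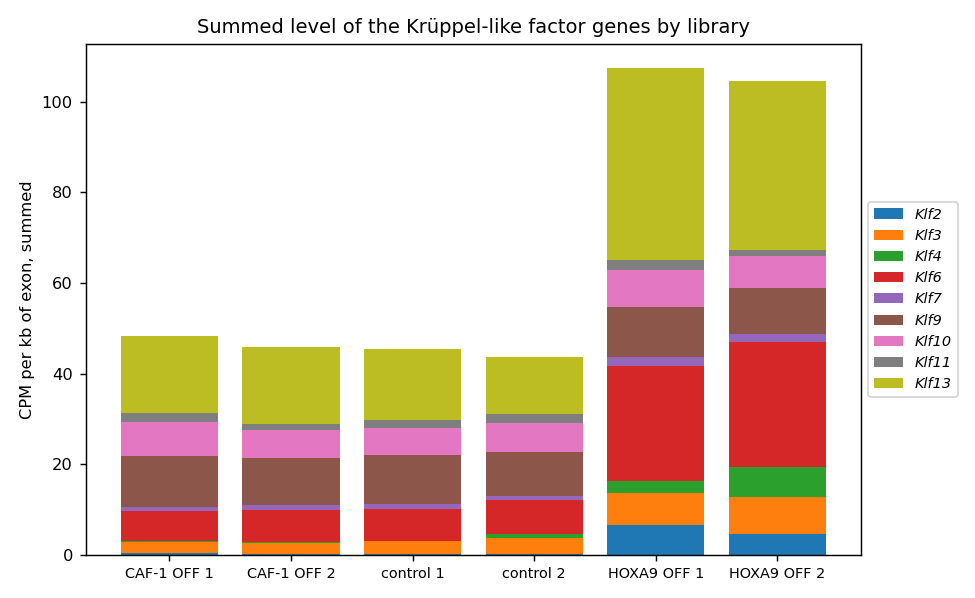
Summed level of the KLF genes in CPM per kb of exon in each library, divided by gene. The sums average 44.6 in control, 47.1 with CAF-1 OFF and 106 with HOXA9 OFF.

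To ask whether loss of CAF-1 moved the same genes at 24 h, CAF-1 OFF was compared with control. None of the 9 tested genes was called, and 0 had an unadjusted p under 0.05, beside 10.7% of all genes tested. DESeq2 and the edgeR exact test also called 0 of the 9. Among all genes tested 0.0241% were called higher and 0.00803% lower, so a count of 0 among 9 genes is near the background. Klf2 and Klf13 were higher and Klf3 lower in both CAF-1 OFF libraries than in both controls, that is 3 of 9 without overlap, beside 40.1% of all genes. Klf2 had a log2 change of 0.75 ± 0.49 SE (95% interval -0.42 to 1.92, FDR 0.646), which was 0.22 without CAF-1 OFF replicate 1 and 1.15 without CAF-1 OFF replicate 2. Klf13 had one of 0.25 ± 0.13 SE (interval -0.06 to 0.57, FDR 0.551), and Klf3 one of -0.40 ± 0.20 SE (interval -0.88 to 0.09, FDR 0.548). Klf4 had -0.99 ± 0.77 SE (FDR 0.709), which became 0.35 without control replicate 2. Klf6 had the narrowest interval, -0.32 to 0.20 around -0.06, so a change of 1.5-fold in either direction lies outside it.

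Compared directly with HOXA9 OFF, 6 of the 9 genes were lower in CAF-1 OFF, where 12.6% of all genes were called lower and 9.56% higher. Klf2 was 19.9-fold lower (log2 -4.32 ± 0.41 SE, FDR 0.00111). Klf4 had a log2 difference of -4.16 ± 0.75 SE (FDR 0.00873), Klf6 of -1.95 ± 0.11 SE (FDR 0.000304), Klf3 of -1.65 ± 0.20 SE (FDR 0.0025), Klf13 of -1.23 ± 0.13 SE (FDR 0.00159) and Klf7 of -0.96 ± 0.21 SE (FDR 0.0158). Without HOXA9 OFF replicate 2 the difference of Klf4 was -3.37 (FDR 0.0307). Without Klf2, which passed the filter only through HOXA9 OFF, 5 of 8 were lower. The Klf7 call was lost without CAF-1 OFF replicate 1 (log2 -0.80, FDR 0.0617) or HOXA9 OFF replicate 1 (log2 -0.79, FDR 0.101). This comparison and the one with control share the HOXA9 OFF libraries.

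In the rest of the family, of 16 other KLF and SP genes, 7 were tested and 1 was called, as lower, in HOXA9 OFF against control, where 8.97% of all genes were called lower. Klf16 had 34.4 and 45.2 CPM in control, 43.0 and 35.2 CPM with CAF-1 OFF, and 19.3 CPM in both HOXA9 OFF libraries, and it fell (log2 -1.05 ± 0.17 SE, FDR 0.00628). Sp1 had a log2 change of 0.11 ± 0.17 SE (FDR 0.659) and Sp3 one of 0.44 ± 0.09 SE (FDR 0.0127), under the fold required. Klf1 was near the floor, at 0.434 to 1.66 CPM across the 6 libraries. Klf12 had 0 counts in all.

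Proteins that act with KLFs were taken from lists. Over the 7 lists outside the members, 12 of the 43 genes tested (27.9%) were called in HOXA9 OFF against control, beside 22% of all genes. Pooled, the lists thus lay near the background. Single lists ran from 0 of 7 genes called (TGF-beta) to 3 higher and 1 lower of 6 (targets). With so few genes each, their counts are given as descriptions. Of 9 cofactors, 2 rose in HOXA9 OFF, the acetyltransferases Ep300 (85.9 and 63.4 CPM in control, 131 and 135 CPM in HOXA9 OFF, log2 0.83 ± 0.25 SE, FDR 0.0451) and Kat2b (15.8 and 16.4 CPM in control, 31.3 and 34.0 CPM in HOXA9 OFF, log2 1.02 ± 0.14 SE, FDR 0.00317). The corepressor Sin3a had -0.21 ± 0.14 SE (FDR 0.317) and Ctbp2 -0.12 ± 0.14 SE (FDR 0.546), and the deacetylase Hdac2 had -0.50 ± 0.09 SE (FDR 0.00908), under the fold required. Of 5 ubiquitin ligases that act on KLFs, Wwp1 (log2 0.81 ± 0.15 SE, FDR 0.00847) and Itch (0.72 ± 0.14 SE, FDR 0.0099) rose and Siah1a (-0.72 ± 0.17 SE, FDR 0.0209) fell. Of 5 genes of the MEK5, ERK5 and MEF2 pathway, which induces Klf2 and Klf4 in endothelium, Mapk7 was listed at 0 and could not be tested. Of the 4 tested, 2 rose. These were the transcription factor genes Mef2c, which went from 5.70 and 4.59 CPM to 30.4 and 36.6 CPM (log2 2.70 ± 0.27 SE, FDR 0.00123), and Mef2a (log2 1.11 ± 0.18 SE, FDR 0.0052). Mef2d (log2 0.20 ± 0.16 SE, FDR 0.382) and Map2k5 (log2 0.00 ± 0.10 SE, FDR 0.981) did not pass the test.

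None of the 7 TGF-beta pathway genes and none of the 5 glucocorticoid response genes was called in HOXA9 OFF by edgeR, and 3 and 2 of them had an unadjusted p under 0.05, beside 41.9% of all genes tested. Tgfb1 (log2 0.51, FDR 0.0309), Tgfbr2 (0.50, FDR 0.0499) and Fkbp5 (-0.30, FDR 0.0483) passed the FDR but were under the fold required. Of 6 reported KLF targets, 3 rose and 1 fell, where 13% and 8.97% of all genes were called in these directions. The lectin gene Lgals3, at 8.45 and 12.0 CPM in control and 27.9 and 71.2 CPM in HOXA9 OFF (log2 2.28 ± 0.43 SE, FDR 0.00986), the lipopolysaccharide co-receptor Cd14 (2.12 ± 0.26 SE, FDR 0.00221) and the integrin Itgb7 (1.75 ± 0.29 SE, FDR 0.0062) rose, and the cell cycle inhibitor Cdkn1a fell (-0.84 ± 0.25 SE, FDR 0.0472). S1pr1, a target of Klf2 in T cells, had a log2 change of -0.29 ± 0.44 SE (FDR 0.662). No gene of any of these lists was called in CAF-1 OFF against control by edgeR, and 6 of the 43 other genes tested had an unadjusted p under 0.05, beside 10.7% of all genes tested.

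**Figure D4:**
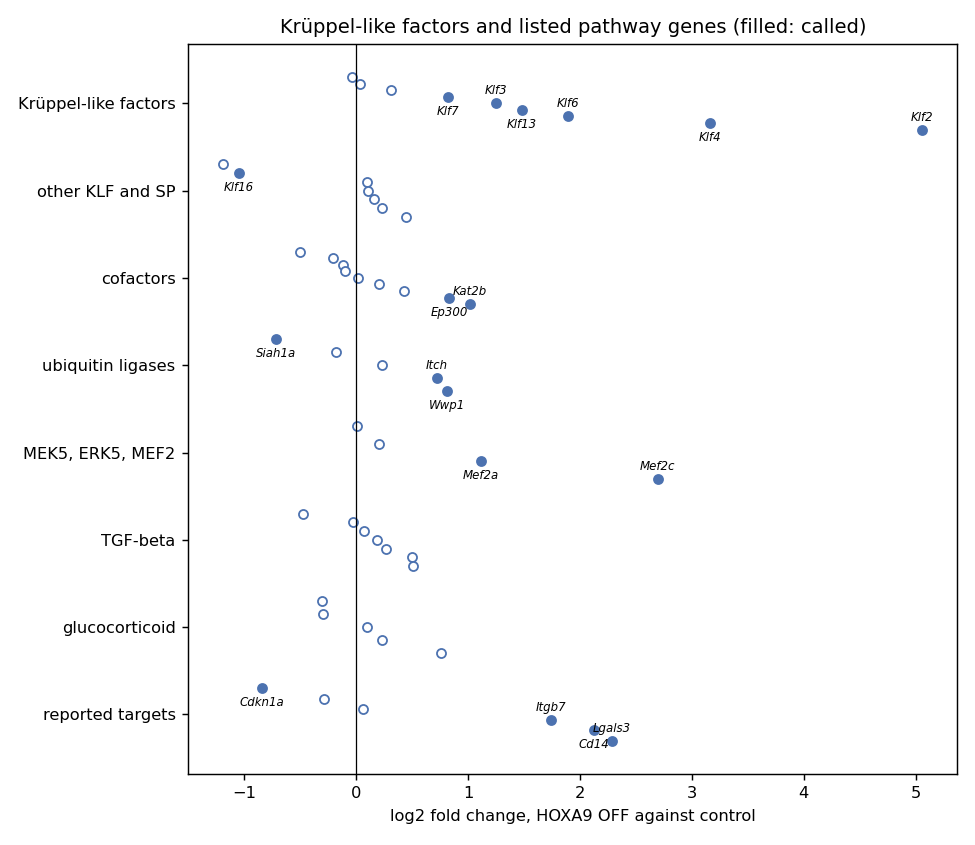
Log2 fold change in HOXA9 OFF against control of the tested KLF genes and of the listed family, cofactor, pathway and target genes, 1 point per gene, filled where called. KLF genes reach 5.06 (Klf2), MEF2 genes 2.70 (Mef2c) and targets 2.28 (Lgals3), while none of the TGF-beta and glucocorticoid genes is filled.

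The same libraries differed in markers of cell state. The 7 neutrophil markers summed to 20.9 to 31.3 CPM in control, 52.3 to 58.3 CPM with CAF-1 OFF and 700 to 1120 CPM with HOXA9 OFF, where all 7 were called higher. Monocyte markers summed to 1040 to 1050, 1030 to 1490 and 1540 to 2440 CPM in these groups, sums carried by F13a1 (FDR 0.124 in HOXA9 OFF). The other 4 tested were called higher in HOXA9 OFF, Csf1r by 61.3-fold, Cx3cr1 by 8.66-fold, Cd68 by 5.48-fold and Ly6c2 by 4.24-fold, and Ly6c2 had 28.9 and 17.2 CPM in control and 102 and 150 CPM with CAF-1 OFF (FDR 0.0976). Progenitor markers summed to 11300 to 14300, 15200 to 16800 and 11400 to 14400 CPM. Of the 7, Cd34, Kit, Flt3 and Ctsg were called lower in HOXA9 OFF, while Mpo (log2 0.53, FDR 0.112), Elane (0.76, FDR 0.131) and Prtn3 (0.59, FDR 0.061) had positive changes that passed no test. Markers of megakaryocytes summed to 24.4 to 27.3, 36.1 to 73.8 and 65.6 to 85.9 CPM, so that CAF-1 OFF and HOXA9 OFF overlapped, and the genes differed in order. Itga2b was highest in HOXA9 OFF (53.8 and 62.2 CPM, against 43.4 and 20.2 CPM with CAF-1 OFF), whereas Pf4 had 14.2 and 9.22 CPM with CAF-1 OFF and 2.70 and 6.43 CPM in HOXA9 OFF. Markers of mast cells and eosinophils summed to 747 to 1140, 1210 to 1730 and 3870 to 5170 CPM, a sum carried by the eosinophil granule gene Prg2. The mast cell and basophil gene Mcpt8 was instead higher in CAF-1 OFF (107 and 44.1 CPM) than in HOXA9 OFF (25.0 and 21.9 CPM, FDR 0.0172). B cell markers summed to 130 to 151, 149 to 168 and 54.1 to 63.4 CPM, a difference carried by Ebf1 (94.0 and 98.5 CPM in control, 2.51 and 3.03 CPM in HOXA9 OFF), while Cd79b had 34.7 and 47.5 CPM in control and 48.3 and 55.8 CPM in HOXA9 OFF. The sum of the erythroid markers was at most 4.88 CPM. The part of these differences in the rise of the KLF genes was not tested, and in bulk RNA a larger share of expressing cells and more RNA per cell cannot be told apart.

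Genes whose log2 CPM followed a KLF gene most closely over the 6 libraries, among 9614 or 9615 genes with a mean of at least 5 CPM, are given by Pearson's r as a description. Spn, which encodes the leukocyte sialoglycoprotein CD43, was nearest to Klf2 (r = 0.9995), followed by Cdc42se1 and Napsa. The G-CSF receptor gene Csf3r (r = 0.9997) and the haptoglobin gene Hp (r = 0.9993) were nearest to Klf13, Madd and Cd300lb to Klf6 (both 0.9991), Acap3 to Klf4 (0.9975), Zxdc to Klf3 (0.9987) and Kctd18 to Klf7 (0.9972). The 6 points are 3 pairs of libraries, so a gene that separates HOXA9 OFF from the other groups by itself gives a high r. Klf9, Klf10 and Klf11, which passed no test, had nearest genes at 0.9938 (Scrn3), 0.9957 (Eml3) and 0.9718 (2810021B07Rik).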

How the data were processed

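RNA of 6 samples (3 groups of 2, by sample titles) was sequenced after a NEBNext kit. The authors aligned reads to mm9 with STAR and counted them with HTSeq-count, and the deposited values are raw counts per gene symbol. The annotation, overlap mode and strand setting are not given in the sources used here. The 5 tally lines per file stayed out of library sizes and tests. Of these, the line of reads assigned to no gene alone equalled 5.95% to 8.26% of the gene counts. Tests used edgeR 4.0.16 in R 4.3.3 (filterByExpr, TMM, quasi-likelihood test, 1 mean per group over 6 libraries), which left 12460 genes. Fold changes are of fitted means, SEs come from the F statistic, and intervals cover 95%. CPM per kb used exon lengths from the GENCODE annotation of NCBIM37 (mm9), and promoters came from RefSeq, GRCm38.p6. Depth was 16773560 to 25170898 counts, and floors of 3 counts cover counting error only. Members and lists were chosen with earlier results of these data known, and named genes followed a rule: all members, called genes of each list with up to 4 others, and the 3 genes most like each member. Alternatives included DESeq2 1.42.0, the exact test, other scalings and filters, a replicate block and fits without each library. The scripts were tested on simulated counts with 200 changed genes in HOXA9 OFF. There, 57% of 2-fold and 82.4% of 4-fold changes were called, and 8.65% of the calls were false. Some genes of the lists are not reported here and were left out of the list counts.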

Additional observations from a re-analysis of the deposited data

How the results depend on the processing

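With 2 libraries per group, calls over all genes in CAF-1 OFF against control were unsteady. There were 4, against 378 with no expression filter, 193 with the DESeq2 Wald test, 243 with the edgeR exact test, 9 in a fit to the 4 libraries compared, 0 at 2-fold and FDR 0.01, and 0 to 8 without 1 library at a time. An unadjusted p under 0.05 was found for 1330 genes. In HOXA9 OFF against control 2740 genes were called, 987 at 2-fold and FDR 0.01 and 1602 to 2128 without 1 library. In CAF-1 OFF against HOXA9 OFF the numbers were 2755, 948 and 1711 to 2718. Scaled by library total alone, calls split into 1434 higher and 1409 lower in HOXA9 OFF against control, in place of 1622 and 1118, and into 1475 higher and 1334 lower in CAF-1 OFF against HOXA9 OFF, in place of 1191 and 1564.

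For CAF-1 OFF against control, the alternatives with 2 libraries per group gave 0 to 378 calls over all genes. With so few calls, a count of 0 KLF genes cannot show whether the KLF genes were steadier than the rest. The number of KLF genes called was 0 in each of these alternatives. It was 4 to 6 in HOXA9 OFF against control and 5 to 6 in CAF-1 OFF against HOXA9 OFF, and 5 in HOXA9 OFF against control without any 1 library. Scaled by library total alone, the log2 change of Klf9 in HOXA9 OFF against control became -0.046 and that of Klf11 in CAF-1 OFF against HOXA9 OFF became 0.039, and the cause was not tested. Signs that turned without 1 library belonged to changes that passed no test. In CAF-1 OFF against control, log2 changes ran from -1.74 to 0.35 for Klf4, -0.11 to 0.0034 for Klf6, -0.31 to 0.015 for Klf7, -0.0055 to 0.18 for Klf9, -0.037 to 0.30 for Klf10 and -0.33 to 0.15 for Klf11. In HOXA9 OFF against control they ran from -0.059 to 0.13 for Klf9 and -0.32 to 0.19 for Klf11, and in CAF-1 OFF against HOXA9 OFF from -0.0077 to 0.11 for Klf9 and -0.28 to 0.25 for Klf11. A filter at a mean of 5 CPM removed Klf2 from the test.

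The groups share replicate numbers, which no source says mark a shared culture. Deviations of same-numbered libraries correlated at -0.178 (CAF-1 OFF and control), 0.456 (HOXA9 OFF and control) and 0.0329 (CAF-1 OFF and HOXA9 OFF), not above 0.1 in every pair of groups, so the numbers were not taken as pairing. With a replicate block, CAF-1 OFF against control had 2 calls, 2680 in HOXA9 OFF against control and 2684 in CAF-1 OFF against HOXA9 OFF, with 0, 6 and 6 of the KLF genes. With crossed numbers, an alternative added after the data were seen, CAF-1 OFF against control had 71 calls. Among the tested KLF genes, Klf2 had the lowest counts in the control and CAF-1 OFF libraries, at 5 to 13.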
